A study of Homo sapiens with 6 samples.

Results

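The genes described here build the N-glycans of secreted and membrane proteins, trim them, and extend them with galactose and sialic acid. The list of members was given by symbol and covers sugar donors and dolichol-linked assembly, the oligosaccharyltransferase, trimming and lectin-assisted folding in the endoplasmic reticulum (ER), Golgi trimming and branching, the B4GALT galactosyltransferases and a pair of sialyltransferases. It held 47 of the 62700 genes in the table, each found by its Ensembl ID; the list names genes by role and sets no threshold on a value, but it was drawn up with earlier results of these data known. Transcripts were measured by bulk RNA-seq in A549, an established human lung adenocarcinoma line, grown in RPMI-1640 medium with fetal bovine serum. The sgH2AC19 group held 3 libraries from knockout derivatives with a guide against H2AC19, which encodes a histone H2A. The sgControl group held 3 libraries with a control guide and is labelled as wild type. The labels do not say whether a library came from its own culture, or whether the derivatives are a pool or a clone, so the spread behind each p-value may be technical only.

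An N-glycan is built in advance as a branched sugar chain on the lipid dolichol in the ER membrane, and the oligosaccharyltransferase moves it as one block onto asparagines of a growing protein. Glucosidases then remove its glucose residues, the lectins calnexin and calreticulin hold glycoproteins that still carry one glucose while they fold, and UGGT1 puts that glucose back on unfolded ones. In the Golgi, mannosidases trim the chain, MGAT enzymes start branches, and galactose and sialic acid complete them, which sets how the glycoproteins of an epithelial cell surface are seen by lectins and receptors.

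Levels are in FPKM (fragments scaled to transcript length and library size), which the authors deposited, and each fold change is a difference of log2(FPKM + 1), sgH2AC19 over sgControl. A gene was called when its limma p, adjusted by Benjamini-Hochberg over 12871 genes tested, was below 0.05. The libraries held 35681162 to 45738439 reads, as recovered from the steps of the FPKM values, and every tested member had at least 246 reads in each library. H2AC19 and its near-identical neighbour H2AC18 were listed at 0 FPKM in all 6 libraries, so the target gives no check of the knockout, and every direction below rests on the labels. The 6 epithelial markers fixed for the check (EPCAM, CDH1, KRT7, KRT8, KRT18 and KRT19) were all at 1 FPKM or more in every library, with sums of 964 to 1011 FPKM in sgH2AC19 and 834 to 863 FPKM in sgControl. Markers of other cells were low: the sums over 5 endothelial genes were 0.213 to 0.269 and 0.129 to 0.204 FPKM in sgH2AC19 and sgControl, over 5 fibroblast genes 1.46 to 1.64 and 0.658 to 0.791 FPKM, and over 5 leukocyte genes 2.17 to 3.20 and 1.67 to 2.32 FPKM. Of the marker genes of other cells CD14 alone reached 1 FPKM in all libraries, and CD3E was at 0 in all; the part of these lists in the results was not tested. On the second principal component, which held 18.2% of the variance over all genes tested, sgH2AC19 replicate 3 stood at -16.0, away from the other sgH2AC19 libraries at 8.09 and 8.32. In bulk RNA, fewer cells of a kind and less RNA per cell cannot be told apart.

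In sgH2AC19 cells the transcripts for B4GALT1, the galactosyltransferase of N-glycan branches, and GANAB, the catalytic subunit of glucosidase II, were more than 2 times as abundant as in sgControl. Smaller rises were found in the same ER segment of the pathway, for CALR, PRKCSH, UGGT1, RPN1, DDOST and RPN2. B4GALT3 and B4GALT6 fell. Of the 47 members, 42 passed the filter of 1 FPKM in at least 3 libraries, and 10 of them were called, 8 up and 2 down. That share, 23.8% of the tested members, lies near the 23.1% called among all genes tested, so the number of calls is no result about the pathway. The members called up made 19.05% of those tested, against 12.0% of all genes, and 11.0% of all genes were called down. The groups did not overlap for 21 of the 42 tested members, with sgH2AC19 above in 15 and below in 6, and for 43.2% of all genes. The median log2 fold change was 0.04 over the tested members and -0.01 over all genes tested. No tested member had passed the filter through one group alone.

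**Figure D1:**
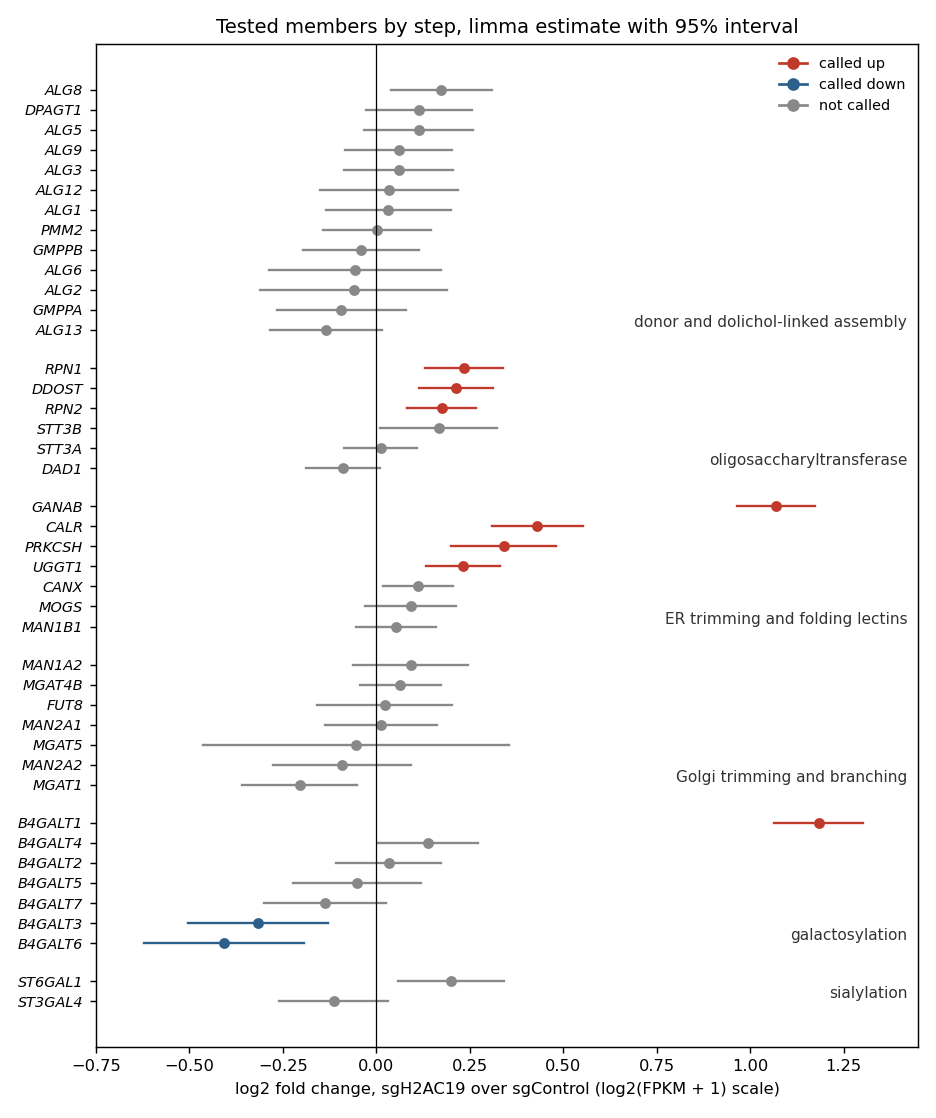
Log2 fold change of each tested member, sgH2AC19 over sgControl, on the log2(FPKM + 1) scale (horizontal axis), grouped by step from assembly at the top to sialylation at the bottom. Points are limma estimates from 3 libraries a group and lines are 95% intervals, in red for members called up, blue for members called down and grey for the rest. B4GALT1 and GANAB stand apart at 1.18 and 1.07, and all 7 members of ER trimming lie to the right of 0.

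By step of the pathway, no member was called among the 13 tested of donor and dolichol-linked assembly (limma, with 1 at an unadjusted p below 0.05), nor among the 7 tested of Golgi trimming and branching (again 1 at an unadjusted p below 0.05). Of the listed oligosaccharyltransferase subunits 3 of 6 were called up, and of ER trimming and folding 4 of 7, with none down and median log2 fold changes of 0.17 and 0.23; over all genes 12.0% were called up. A further 6 subunits of the oligosaccharyltransferase, not members, held 0 calls up and 1 down, with a median of -0.02. In galactosylation 1 of 7 was called up and 2 down, with a median of -0.05. These counts describe each step, and whether the steps differ from each other was not tested. The steps also differ in level. The median of the members' mean FPKM was 2.35 in assembly and 4.10 in Golgi trimming, against 70.0 in the oligosaccharyltransferase and 29.7 in ER trimming. The log2(FPKM + 1) scale understates the change of low genes. With limma-voom on the recovered reads, ALG8 of assembly was called up (adjusted p 0.0415) and MGAT1 of Golgi branching down (0.0242).

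The enzymes that supply mannose and build the dolichol-linked chain were expressed at low to moderate levels. ALG2, a mannosyltransferase of the cytosolic face, had the highest mean of this step, at 18.1, 17.2 and 13.5 FPKM in sgH2AC19 and 17.5, 17.7 and 15.6 FPKM in sgControl. The groups overlapped, with the lowest value in sgH2AC19 replicate 3, and the log2 fold change was -0.06 (SE 0.107, adjusted p 0.72). ALG11, the next mannosyltransferase, had the lowest mean, at 0.492, 0.475 and 0.376 FPKM in sgH2AC19 and 0.410, 0.419 and 0.456 FPKM in sgControl. ALG11 stayed below the filter, as did ALG14, the membrane anchor of ALG13, with means of 0.489 ± 0.0213 FPKM in sgH2AC19 and 0.508 ± 0.0432 FPKM in sgControl (SD, n = 3 each). Among the tested members, log2 fold changes ran from -0.13 for ALG13, which helps add the second sugar, to 0.17 for ALG8, a glucosyltransferase. ALG8 had 6.42, 7.08 and 7.06 FPKM in sgH2AC19, against 5.83, 5.75 and 6.29 FPKM in sgControl, so its groups did not overlap. Its adjusted p was 0.0676 with limma on FPKM and 0.0415 with limma-voom on the recovered reads. DPAGT1, which starts the chain and is the target of tunicamycin, differed by 0.12 (95% interval -0.03 to 0.26, adjusted p 0.207). PMM2, whose loss causes the commonest congenital disorder of glycosylation, had 4.80 ± 0.329 FPKM in sgH2AC19 and 4.79 ± 0.238 FPKM in sgControl (SD, n = 3 each; 95% interval of the log2 difference -0.14 to 0.15).

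The oligosaccharyltransferase joins a catalytic STT3 subunit to shared partners. RPN1 (ribophorin I), a structural subunit, had 62.3, 59.1 and 63.3 FPKM in sgH2AC19 and 51.1, 51.8 and 53.6 FPKM in sgControl. All sgH2AC19 libraries lay above all sgControl libraries, with a log2 fold change of 0.23 (SE 0.0439, adjusted p 0.0107). DDOST, the subunit OST48, had 65.0, 63.2 and 66.3 FPKM in sgH2AC19 and 54.6, 55.1 and 57.9 FPKM in sgControl, again without overlap, a change of 0.21 (SE 0.0424, adjusted p 0.0133). DDOST missed the threshold when sgControl replicate 1 (adjusted p 0.0581) or replicate 2 (0.0549) was left out. RPN2 (ribophorin II) had 86.3, 87.2 and 90.8 FPKM in sgH2AC19 and 77.4, 79.4 and 76.9 FPKM in sgControl, without overlap, a change of 0.17 (SE 0.0394, adjusted p 0.0202). That call was lost without sgControl replicate 1, 2 or 3, with adjusted p-values of 0.0772, 0.0539 and 0.0820. The 3 rises were thus 1.1 to 1.2 times in FPKM.

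The catalytic subunits STT3A and STT3B and the shared subunit DAD1 were not called. STT3A, which glycosylates proteins as they enter the ER, had the lowest mean of the 6 members of the complex, at 20.5, 20.2 and 20.3 FPKM in sgH2AC19 and 20.5, 20.5 and 19.5 FPKM in sgControl. Its log2 fold change was 0.01 (95% interval -0.09 to 0.11). STT3B, which acts on sites that were missed, had 77.9, 81.7 and 93.3 FPKM in sgH2AC19 and 74.3, 74.6 and 75.5 FPKM in sgControl. The groups did not overlap, sgH2AC19 replicate 3 was the highest, and the change of 0.17 (SE 0.067) had an adjusted p of 0.115. DAD1, a small subunit needed for the stability of the complex, had the highest mean of the 6, with 118, 115 and 112 FPKM in sgH2AC19 against 123, 119 and 125 FPKM in sgControl. Here sgH2AC19 lay below in every library, by -0.09 on the log2 scale (SE 0.0418, adjusted p 0.164). The ratio of STT3B to STT3A was 4.15 ± 0.407 in sgH2AC19 and 3.71 ± 0.140 in sgControl (SD, n = 3 each; exact two-sided permutation p = 0.2, adjusted 0.275 over 11 ratios compared). With 3 libraries a group the smallest p this test can give is 0.1.

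GANAB (ENSG00000089597, chr11:62624826-62646726, minus strand, GENCODE 29 on GRCh38) encodes the subunit of glucosidase II that removes the inner glucose residues. It had 87.3, 84.5 and 92.3 FPKM in sgH2AC19 and 41.9, 41.4 and 41.0 FPKM in sgControl. Every sgH2AC19 library lay above every sgControl library, by more than 40 FPKM. The means were 88.0 ± 3.94 FPKM in sgH2AC19 and 41.4 ± 0.464 FPKM in sgControl (SD, n = 3 each), and the log2 fold change was 1.07 (SE 0.0448, adjusted p 8.8e-05), the 19th highest among the 12871 genes tested. PRKCSH, the partner subunit that keeps glucosidase II in the ER, changed less. It had 34.8, 30.6 and 34.7 FPKM in sgH2AC19 and 25.8, 26.97 and 25.4 FPKM in sgControl, without overlap, and rose by 0.34 (SE 0.0599, adjusted p 0.00858). The ratio of GANAB to PRKCSH was 2.51, 2.76 and 2.66 in sgH2AC19 and 1.62, 1.53 and 1.61 in sgControl. No library of one group reached the other (exact two-sided permutation p = 0.1, the smallest possible; adjusted 0.157).

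The enzyme that acts before glucosidase II was not called. MOGS, glucosidase I, which removes the outermost glucose, had 11.2, 10.5 and 10.5 FPKM in sgH2AC19 and 10.5, 9.60 and 9.85 FPKM in sgControl, a difference of 0.09 (SE 0.0521, adjusted p 0.242). The ratio of GANAB to MOGS was 8.23 ± 0.511 in sgH2AC19 and 4.15 ± 0.159 in sgControl (SD, n = 3 each; exact permutation p = 0.1, adjusted 0.157). MAN1B1, the ER mannosidase that marks glycoproteins for disposal, had the lowest mean of the ER step, at 6.94, 7.10 and 7.04 FPKM in sgH2AC19 and 6.59, 6.63 and 7.01 FPKM in sgControl. Its groups overlapped only through sgControl replicate 3, and its change was 0.05 (SE 0.0456, adjusted p 0.446).

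The folding cycle that follows was higher in sgH2AC19 at the soluble lectin and at the sensor. CALR (calreticulin, ENSG00000179218, chr19:12938578-12944489, plus strand) had the highest mean FPKM of the members, with 331, 341 and 361 FPKM in sgH2AC19 and 251, 269 and 246 FPKM in sgControl. The lowest sgH2AC19 library exceeded the highest sgControl library by more than 60 FPKM, and the log2 fold change was 0.43 (SE 0.0521, adjusted p 0.00224). UGGT1, which reglucosylates misfolded glycoproteins, had 19.1, 18.98 and 19.9 FPKM in sgH2AC19 and 16.1, 16.6 and 16.2 FPKM in sgControl. Its groups did not overlap either, and it rose by 0.23 (SE 0.0419, adjusted p 0.00941). CANX (calnexin), the membrane-bound lectin, had 129, 136 and 131 FPKM in sgH2AC19 and 123, 125 and 119 FPKM in sgControl. Its libraries were also separate, but its difference of 0.11 (SE 0.0403) had an adjusted p of 0.0856. The ratio of CALR to CANX was 2.61 ± 0.131 in sgH2AC19 and 2.09 ± 0.0545 in sgControl (SD, n = 3 each; exact permutation p = 0.1, adjusted 0.157).

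**Figure D2:**
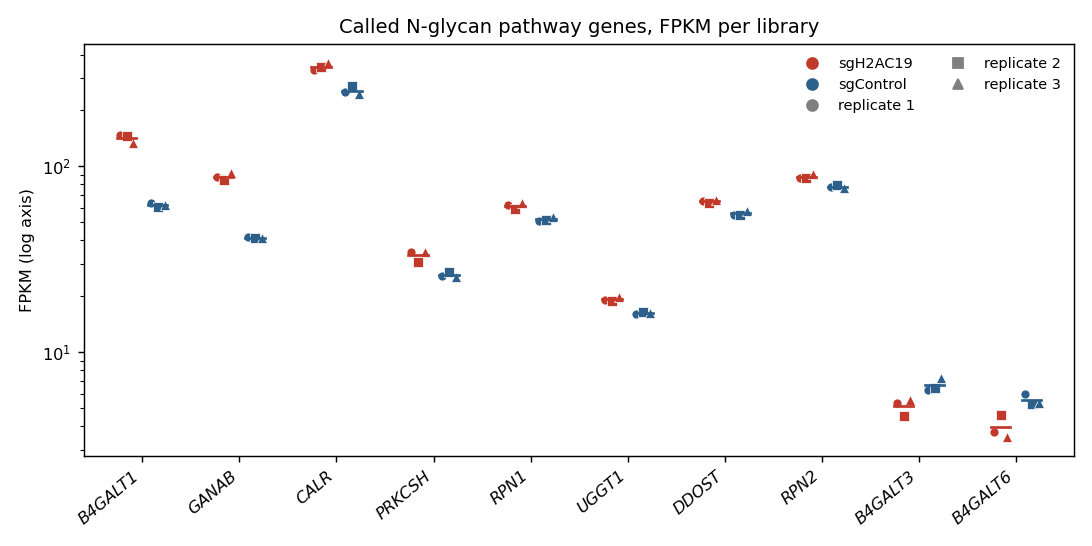
FPKM per library (logarithmic vertical axis) of the 10 called members, ordered by log2 fold change, with sgH2AC19 in red left of sgControl in blue; symbols mark the replicate numbers and bars the means of 3 libraries. In each of these genes the groups are separate, most widely for B4GALT1 and GANAB.

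Lectins of the ER are classic targets of the unfolded protein response, whose factors bind the ER stress response element (ERSE), so the promoter windows of the members were searched for it. RefSeq (GRCh38.p14) windows, 250 bases before to 50 after a gene's start, were on hand for 41 members. The ERSE, spelled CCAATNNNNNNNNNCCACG and searched on both strands, was found in 3 of them, CALR, CANX and ALG12, and in 0.0916% of 27305 genes searched. A gene could have several windows. The sites and their surroundings are shown because they are the members whose windows share this element, and the capitals mark its conserved ends; in CALR it lies on the opposite strand. The stretches are at chr19:12938374-12938412 (plus strand) for CALR, chr5:179698768-179698806 (plus strand) for CANX and chr22:49918544-49918582 (minus strand) for ALG12.
CALR: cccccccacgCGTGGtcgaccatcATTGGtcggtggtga
CANX: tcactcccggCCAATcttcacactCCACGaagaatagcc
ALG12: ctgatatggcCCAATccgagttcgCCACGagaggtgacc
Of these 3 genes CALR alone was called. ALG12, a mannosyltransferase of chain assembly, had 1.51, 1.62 and 1.41 FPKM in sgH2AC19 and 1.27, 1.54 and 1.56 FPKM in sgControl, with overlapping groups and a difference of 0.03 (SE 0.0787, adjusted p 0.788). It had 246 to 368 reads per library and shares 42.1% of its exon bases with other annotated genes. CRELD2 is among these and was not called (0.14, adjusted p 0.321). The second form of the element (ERSE-II, ATTGGNCCACG, in 0.0696% of genes searched) and the UPRE (TGACGTGG, in 0.927%) were in none of the 41 members' windows, with both strands searched. No ERSE site overlapped a GC box (GGGCGG, both strands). A match describes letters and does not show a factor's binding.

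Golgi trimming and branching held 10 members, of which 7 were tested. MGAT4B, which adds a branch, had the highest mean, at 20.8, 19.6 and 20.5 FPKM in sgH2AC19 and 20.01, 18.7 and 19.4 FPKM in sgControl. The groups overlapped and the difference was 0.06 (SE 0.0464, adjusted p 0.352). MGAT2, which starts the branch on the other arm, had the lowest mean, at 0.0896, 0.0940 and 0.0883 FPKM in sgH2AC19 and 0.165, 0.132 and 0.193 FPKM in sgControl. It was lower in every sgH2AC19 library but was not tested, and 91.9% of its exon bases are shared with another annotated gene, so its reads could be split between them. MAN1A1, a mannosidase, and MGAT4A, a branching enzyme, also stayed below the filter, with means of 0.192 ± 0.00873 and 0.378 ± 0.119 FPKM in sgH2AC19 and 0.188 ± 0.0454 and 0.330 ± 0.0546 FPKM in sgControl (SD, n = 3 each). Their relatives MAN1A2 and MGAT4B were the more abundant forms in all 6 libraries, 22.3 to 38.1 times MAN1A1 and 39.9 to 69.8 times MGAT4A.

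MGAT1, which opens the way to complex N-glycans, had 4.01, 4.03 and 3.42 FPKM in sgH2AC19 and 4.45, 4.48 and 4.71 FPKM in sgControl. It was lower in every sgH2AC19 library, by -0.20 on the log2 scale (SE 0.0655), with an adjusted p of 0.0612 that fell to 0.0457 with median-ratio scaling and 0.0242 with limma-voom. MGAT5, whose branch is a known ligand for galectins, varied most among the members. It had 3.21, 3.15 and 5.57 FPKM in sgH2AC19 and 3.96, 3.70 and 4.51 FPKM in sgControl. With sgH2AC19 replicate 3 included, the highest library of all, the difference was -0.05 (SE 0.174, adjusted p 0.856); without it, -0.27 (adjusted p 0.0458). MAN1A2, MAN2A1 and MAN2A2 (mannosidases) and FUT8, which adds core fucose, lay between -0.09 and 0.09 and overlapped between the groups.

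B4GALT1 (ENSG00000086062, chr9:33104082-33167356, minus strand, GENCODE 29 on GRCh38) transfers galactose to branch ends and also forms lactose synthase in the mammary gland. It had 148, 146 and 133 FPKM in sgH2AC19 and 63.5, 60.8 and 61.8 FPKM in sgControl. The lowest sgH2AC19 library stood at more than 2 times the highest sgControl library. The means were 142 ± 7.96 FPKM in sgH2AC19 and 62.0 ± 1.35 FPKM in sgControl (SD, n = 3 each), and the log2 fold change was 1.18 (SE 0.0506, adjusted p 8.8e-05). This was the 8th highest fold change of the 12871 genes tested and the largest of any member.

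The windows of B4GALT1 and GANAB, the pair with the largest changes, are shown with their GC boxes in capitals (GGGCGG, both strands; other GC boxes among the members are not shown). They cover the 160 bases before a RefSeq start (GRCh38.p14), chr9:33167337-33167496 for B4GALT1 and chr11:62646614-62646773 for GANAB, both on the minus strand. For B4GALT1 the window of another start was also searched and held GC boxes, and its stretch is not shown.
B4GALT1: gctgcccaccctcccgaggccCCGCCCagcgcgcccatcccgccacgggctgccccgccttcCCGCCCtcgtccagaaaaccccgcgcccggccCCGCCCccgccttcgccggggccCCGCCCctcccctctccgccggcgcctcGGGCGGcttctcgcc
GANAB: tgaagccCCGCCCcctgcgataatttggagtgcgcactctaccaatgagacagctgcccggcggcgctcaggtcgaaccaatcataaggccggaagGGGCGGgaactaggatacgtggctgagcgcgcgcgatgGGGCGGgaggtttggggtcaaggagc
The B4GALT1 stretch held 5 GC boxes and was 83.1% G and C, and the GANAB stretch held 3 and was 63.8%. A GC box is a common word: it was in 48.3% of the 27305 genes searched, in 35 of the 41 members searched and in 5 of the 7 searched that were called up.

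None of the other B4GALT genes was called up. B4GALT3, an N-glycan galactosyltransferase, had 5.36, 4.55 and 5.55 FPKM in sgH2AC19 and 6.29, 6.45 and 7.24 FPKM in sgControl, so it was lower in every sgH2AC19 library, with a log2 fold change of -0.32 (SE 0.0797, adjusted p 0.0289). B4GALT6, a lactosylceramide synthase of glycolipids, had 3.72, 4.62 and 3.51 FPKM in sgH2AC19 and 5.98, 5.31 and 5.33 FPKM in sgControl, also without overlap, a change of -0.41 (SE 0.0914, adjusted p 0.0197). The rise of B4GALT1 passed under all 13 alternatives, but the falls did not. The B4GALT3 call was lost with no filter on low values (adjusted p 0.106), without sgH2AC19 replicate 1 (0.0538) or 2 (0.0651), and without sgControl replicate 1 (0.0557), 2 (0.0711) or 3 (0.0922). The B4GALT6 call was lost with no filter (0.0824), without sgH2AC19 replicate 1 (0.0594), and without sgControl replicate 1 (0.0681), 2 (0.0531) or 3 (0.0516). B4GALT3 shares 28.7% of its exon bases with PPOX, which had 2.74, 2.63 and 2.36 FPKM in sgH2AC19 and 2.36, 2.21 and 2.15 FPKM in sgControl and was not called (0.14, adjusted p 0.16).

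B4GALT5, the main lactosylceramide synthase and the next most abundant of the family, had 60.0, 54.9 and 59.8 FPKM in sgH2AC19 and 63.9, 54.3 and 63.5 FPKM in sgControl. Its groups overlapped and its difference was -0.05 (95% interval -0.22 to 0.12, adjusted p 0.643). B4GALT4, which acts on sulfated sugars of keratan sulfate, had 11.6, 12.0 and 13.2 FPKM in sgH2AC19 and 11.2, 10.8 and 11.1 FPKM in sgControl, separate but not called (0.14, SE 0.0567, adjusted p 0.121). B4GALT2, close to B4GALT1 in sequence, had 4.71, 4.14 and 4.14 FPKM in sgH2AC19 and 4.11, 4.18 and 4.32 FPKM in sgControl, with overlap (0.03, SE 0.0596, adjusted p 0.724). B4GALT7, which builds the linker of proteoglycans and had the lowest mean, stood at 2.81, 2.83 and 2.38 FPKM in sgH2AC19 and 3.08, 2.88 and 3.14 FPKM in sgControl, lower in every sgH2AC19 library but not called (-0.14, SE 0.0693, adjusted p 0.194).

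As a share of the family's transcripts, B4GALT1 made 62.6%, 63.8% and 60.1% of the summed B4GALT FPKM in sgH2AC19 and 40.2%, 42.0% and 39.5% in sgControl. In sgControl it was level with B4GALT5, with a ratio of B4GALT1 to B4GALT5 of 1.03 ± 0.0794, whereas in sgH2AC19 the ratio was 2.45 ± 0.217 (SD, n = 3 each). The family sum was 229 ± 7.03 FPKM in sgH2AC19 and 153 ± 7.25 FPKM in sgControl. The sums, shares and ratios named here did not overlap between the groups (exact two-sided permutation p = 0.1 for each, the smallest possible; adjusted 0.157). Without B4GALT1 the sum was 86.6 ± 3.07 FPKM in sgH2AC19 and 91.0 ± 6.15 FPKM in sgControl, with overlap (exact permutation p = 0.3, adjusted 0.367).

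**Figure D3:**
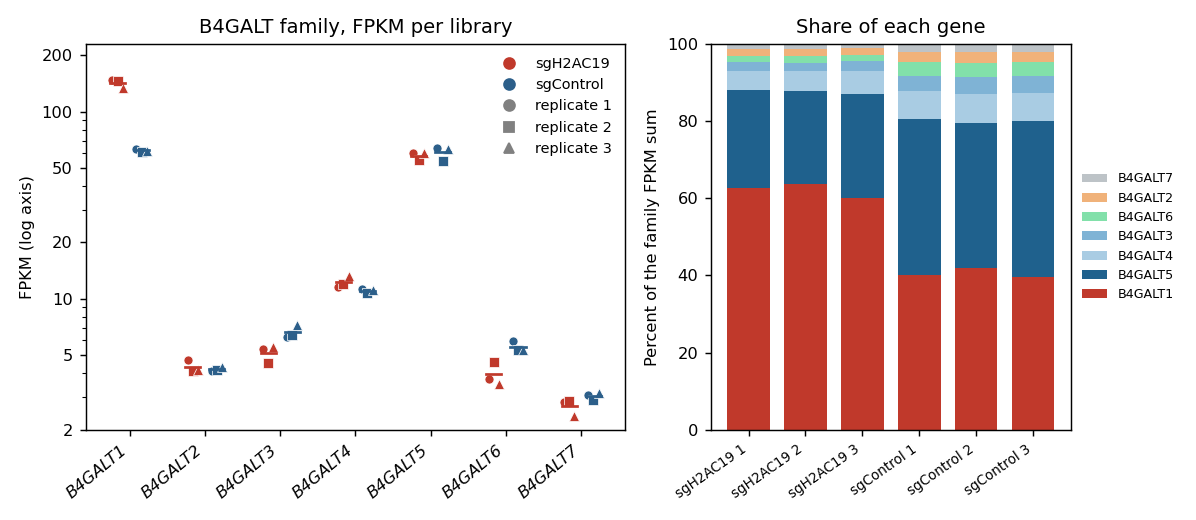
Left, FPKM of the 7 B4GALT genes per library (logarithmic vertical axis), sgH2AC19 in red left of sgControl in blue, with symbols for the replicate numbers and bars for the means of 3 libraries. Right, percent of the family's summed FPKM from each gene in each library, where B4GALT1 makes 60.1% to 63.8% in sgH2AC19 and 39.5% to 42.0% in sgControl.

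The sialyltransferases that cap galactose were expressed at low levels and neither was called (limma, with 1 of 2 at an unadjusted p below 0.05). ST6GAL1, which makes the sialic acid linkage preferred by human influenza viruses, had 2.02, 1.98 and 1.90 FPKM in sgH2AC19 and 1.64, 1.56 and 1.55 FPKM in sgControl. It was higher in every sgH2AC19 library, by 0.20 (SE 0.0604), with an adjusted p of 0.0525 that became 0.0467 with median-ratio scaling and 0.0102 with limma-voom. ST3GAL4, which attaches sialic acid in another linkage and takes part in making selectin ligands, had 1.81, 1.74 and 1.67 FPKM in sgH2AC19 and 1.91, 1.93 and 2.06 FPKM in sgControl. It was lower in every sgH2AC19 library, by -0.11 (SE 0.0621, adjusted p 0.225).

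The genes that make the donor sugars and dolichol formed a list of 26 beside the members. Of 25 tested, 7 were called down and 3 up, with a median log2 fold change of -0.09. Over all genes tested, 11.0% were called down and 12.0% up. GNPNAT1, which acetylates glucosamine phosphate, had 14.6, 15.6 and 16.7 FPKM in sgH2AC19 and 21.7, 22.2 and 22.2 FPKM in sgControl (-0.47, SE 0.0555, adjusted p 0.00206). UAP1, which makes UDP-GlcNAc, had 7.46, 7.22 and 7.28 FPKM in sgH2AC19 and 8.77, 10.6 and 9.64 FPKM in sgControl (-0.36, SE 0.068, adjusted p 0.0113). In both genes each sgH2AC19 library lay below each sgControl library. GNE, which starts sialic acid synthesis, fell by 0.26 (adjusted p 0.00932), with 20.1, 19.8 and 21.5 FPKM in sgH2AC19 and 24.4, 24.5 and 25.3 FPKM in sgControl. NANS and CMAS, the later enzymes of that route, were not called (-0.05 and -0.12, adjusted p 0.483 and 0.0717). PGM3, between GNPNAT1 and UAP1 in the route, also fell (-0.25, adjusted p 0.0321), whereas GFPT1, the entry enzyme, was not called (-0.21, adjusted p 0.132). DHDDS, which makes the dolichol chain, and DPM2, a subunit of dolichol-phosphate-mannose synthase, fell (-0.25 and -0.18, adjusted p 0.0258 and 0.0482). NUS1, the partner of DHDDS, rose by 0.31 (adjusted p 0.012). ALG10B, a glucosyltransferase, rose by 0.25 (adjusted p 0.0483), but it is near-identical to ALG10, so its reads are uncertain. Of the calls named here, those of DHDDS, DPM2, ALG10B and PGM3 were lost under some alternatives, with adjusted p-values of up to 0.0947, 0.152, 0.147 and 0.11.

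**Figure D4:**
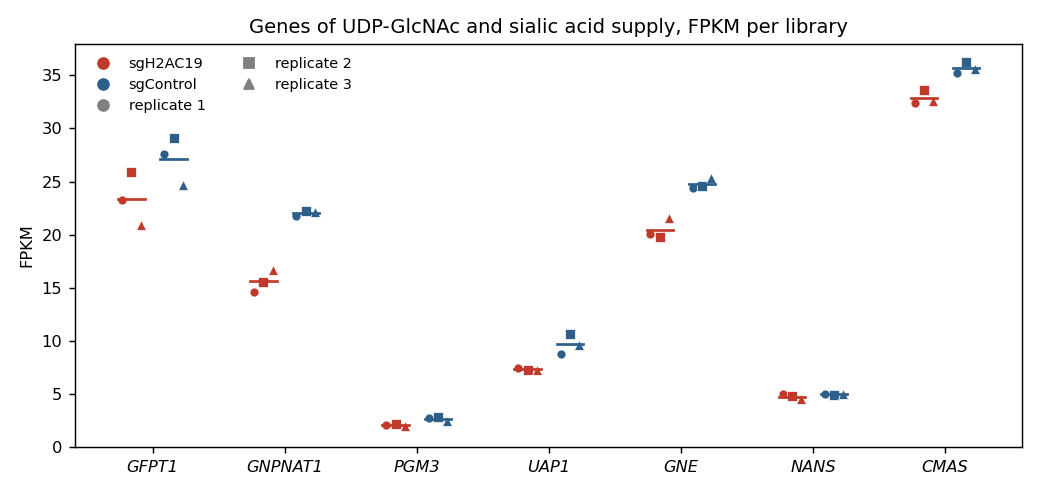
FPKM per library (vertical axis from 0) of genes on the routes to UDP-GlcNAc (GFPT1, GNPNAT1, PGM3, UAP1) and activated sialic acid (GNE, NANS, CMAS), sgH2AC19 in red left of sgControl in blue, with symbols for the replicate numbers and bars for the means of 3 libraries. GNPNAT1, PGM3, UAP1 and GNE were called down, and the other 3 were not called.

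The other lists of neighbouring genes were shorter, and each held fewer calls. Of 7 nucleotide-sugar transporters none was called (limma; 2 at an unadjusted p below 0.05, and 0 called with limma-voom); SLC35A2, which carries UDP-galactose into the Golgi, differed by 0.01 (SE 0.077). Of 6 further oligosaccharyltransferase subunits, OST4 alone was called, down (-0.17, adjusted p 0.0284). That call was kept under 5 of 13 alternatives and in 1 of 6 fits that left out a library, and limma-voom called 0 of the 6. In ER quality control and disposal, 3 of 17 tested genes rose and 1 fell, a share near the 23.1% called over all genes. PDIA3, the disulfide isomerase that works with calnexin and calreticulin, had 35.8, 37.5 and 37.6 FPKM in sgH2AC19 and 30.0, 32.5 and 30.0 FPKM in sgControl (0.26, SE 0.0483, adjusted p 0.0111). PDIA4, another isomerase, and EDEM3, a mannosidase-like disposal factor, rose by 0.32 and 0.31 (adjusted p 0.00988 and 0.0101), while the related EDEM1 fell by 0.36 (adjusted p 0.00956). Among 13 tested other Golgi enzymes, 2 were called up and 2 down, against 12.0% up and 11.0% down over all genes tested. MGAT5B, which acts on branches like MGAT5, had 5.02, 4.72 and 5.59 FPKM in sgH2AC19 and 2.69, 2.41 and 3.07 FPKM in sgControl (0.72, SE 0.0842, adjusted p 0.00208). Its groups were far apart, and it had the largest change on these companion lists. ST6GAL2 rose (0.25, adjusted p 0.012); FUT10 and ST3GAL1 fell (-0.31 and -0.23, adjusted p 0.0352 and 0.0407), calls that were lost under some alternatives (up to 0.125 and 0.129).

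The list for the unfolded protein response held 4 calls among 18 tested genes, near the 23.1% over all genes. Of these, TRIB3 and PDIA6 rose (0.46 and 0.23, adjusted p 0.00519 and 0.00795) and XBP1 and ATF4, transcription factors of the response, fell (-0.22 and -0.16, adjusted p 0.0154 and 0.0257). The XBP1 call was lost without sgControl replicate 1 (0.0638) or 2 (0.0534), and the ATF4 call under several alternatives (up to 0.101). HSPA5 (BiP), the chaperone most often used as a marker of the response, had 315, 349 and 270.1 FPKM in sgH2AC19 and 289, 344 and 262 FPKM in sgControl. Its groups overlapped, and the difference was 0.06 (SE 0.121, adjusted p 0.74). In both groups replicate 2 was the highest and replicate 3 the lowest, and at each number the sgH2AC19 library was the higher. The fit behind this p takes no account of the replicate number. The median of this list was 0.08, with 14 genes not called. Among these was DNAJB9, which had the largest fall of the list (-0.40, SE 0.12, adjusted p 0.0506), with overlapping groups.

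Levels per length rest on gene lengths that the table does not give. For 6 members, PMM2, ALG1, ALG11, ALG5, ALG8 and CANX, the length that turned their FPKM into whole reads was more than 1.5 times the exon length in GENCODE 29. A longer length lowers the FPKM in both groups alike. It touches comparisons between genes, the filter at 1 FPKM and, through the 1 added before the log, the size of a fold change. For ALG5 the log2 fold change was 0.11 on this scale and 0.17 with limma-voom on the recovered reads. In that annotation 9 members share more than 20% of their exon bases with another gene and 23 share none. Whether strand was used in counting is not given in the sources used here.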

How the data were processed

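RNA-seq was measured in 6 libraries of A549 cells, prepared, per the labels' protocols, with a SMARTer mRNA kit. The authors deposited a single table of FPKM values, per the file headers, in which every library has a column of its own. Aligner, counter and annotation are details not given in the sources used here. The submitters' processing notes list the mouse builds GRCm38 and mm10, but the 62700 IDs are human. Columns headed sgNC were taken as sgControl. FPKM make no allowance for composition; the top 20 genes took 33.6% to 36.4% of a library's FPKM.

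Whole reads were recovered for 12869 of 12871 tested genes, within 0.001 reads, which gave the totals. Genes at 1 FPKM or more in 3 or more libraries were compared with limma (3.58.1, R 4.3.3) on log2(FPKM + 1), with a mean-variance trend, two-sided, with Benjamini-Hochberg adjustment over all genes tested. This scale understates the change of low genes. Limma-voom on the recovered reads was an alternative, besides other scalings, filters and pseudocounts, the replicate block and leaving out each library. In simulated data the fit was checked to recover known changes. Ratios within a library were compared by exact two-sided permutation over the libraries. Values are means ± SD of FPKM over 3 libraries and SEs are limma's.

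The members, companion lists, markers and promoter words were chosen with earlier results of these data known. Every called member, the members with the highest and lowest mean of each step and all B4GALT genes were given in full, by rule; other members and companion genes were named after their values were seen, and some companion genes that enter the counts are not reported here by name. No protein sequences were used here, and MOGS, B4GALT6, STT3B, MGAT4A, RPN1 and MAN1A2 had no promoter entry.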

Additional observations from a re-analysis of the deposited data

How the results depend on the processing

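The count of all genes called was 2967 and moved to 1553 with no filter on low values and to between 1513 and 3429 when 1 library was left out (1965 without sgH2AC19 replicate 2, and 1663, 1513 and 1632 without sgControl replicates 1, 2 and 3). Members called up were 8, and 6 to 8 without 1 library. They were 9 with median-ratio scaling and 10 with limma-voom, and under both of these 3 members were called down. In the main fit members called down were 2. They were 0 with no filter, and 0 to 3 without 1 library (0 without sgH2AC19 replicate 1 or any sgControl library, 1 without sgH2AC19 replicate 2). B4GALT1, GANAB, CALR, PRKCSH, RPN1 and UGGT1 passed under all 13 alternatives. Libraries with the same replicate number deviated together only weakly over all genes tested (correlations 0.0524, 0.0346 and 0.0602). Each still correlated best with its own number, a hint from the data and not from the design. Single genes can follow the number more closely: HSPA5, DNAJB9 and other genes of the unfolded protein response list were highest in replicate 2 and lowest in replicate 3 in both groups. The labels do not say whether these libraries share more than a number. With the number as a replicate block 2729 genes were called, with 8 members up and 2 down. The calls of OST4, DPM2 and ALG10B beside the members were then lost (adjusted p 0.0561, 0.0857 and 0.0825). Signs of some members that were not called turned when 1 library was left out, and the cause was not tested: log2 fold changes ran from -0.021 to 0.066 for ALG12, -0.14 to 0.060 for ALG2, -0.15 to 0.0060 for ALG6, -0.017 to 0.059 for B4GALT2, -0.052 to 0.068 for FUT8, -0.029 to 0.065 for MAN2A1, -0.27 to 0.060 for MGAT5, -0.029 to 0.050 for PMM2 and -0.012 to 0.024 for STT3A. At 246 reads or more per member and library, the tested members had SEs of 0.0394 to 0.174 on the log2 scale, so a small difference among them was not detectable with 3 libraries a group.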
